A study of Mus musculus with 6 samples.

Results

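The Toll-like receptors and their adaptor Myd88 were examined in RAW 264.7 cells, a transformed mouse macrophage line, after exposure to bisphenol AP. The members are the 10 genes Tlr1, Tlr2, Tlr3, Tlr4, Tlr6, Tlr7, Tlr8, Tlr9, Tlr13 and Myd88, taken by gene symbol from a deposited table of 34745 genes. Of these 10, 9 had enough reads to be tested and Tlr8 did not. Bisphenol AP (BPAP) is an industrial relative of bisphenol A. The study compared 3 libraries of cells given BPAP with 3 libraries of cells given the solvent DMSO, and asked how BPAP alters macrophages. All 6 libraries come from that cell line, so they stand for a single transformed line and not for macrophages of a tissue. The sources used here do not give the dose of BPAP, the time of exposure or whether the libraries of a group came from separate cultures. The p-values therefore refer to the variation among these 6 libraries, part of which may be technical.

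Toll-like receptors sense molecules of microbes. Tlr1, Tlr2, Tlr4 and Tlr6 sit at the cell surface, where Tlr2 pairs with Tlr1 or Tlr6 to bind lipopeptides and Tlr4 binds lipopolysaccharide, while Tlr3, Tlr7, Tlr8, Tlr9 and Tlr13 sit in endosomes and bind nucleic acids. All of these except Tlr3 signal through Myd88, a cytosolic adaptor that assembles IRAK kinases and leads to NF-kB and to inflammatory genes; Tlr3 signals through the adaptor Ticam1 (TRIF), and Tlr4 uses both.

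BPAP-exposed cells had more Tlr13 RNA, which encodes an endosomal sensor of bacterial ribosomal RNA, at 1.41-fold the DMSO level. This was the only member of the 9 tested to pass the test, and the call did not hold when any of 5 of the 6 libraries was left out. Tlr7, an endosomal sensor of RNA, stood 1.82-fold higher and Myd88 1.305-fold higher, each with non-overlapping groups and an adjusted p above 0.05. Tlr2 was 1.16-fold higher with non-overlapping groups, and Tlr1, Tlr3, Tlr4, Tlr6 and Tlr9 had overlapping groups. With edgeR's quasi-likelihood test and Benjamini-Hochberg adjustment over all genes, 1 of 9 tested members (11.1%) passed, against 31.7% of the 11711 genes tested, and 16.2% of those genes passed as higher in BPAP. Log2 fold changes are given as BPAP minus DMSO, so that a positive value is a higher level in BPAP. At an unadjusted p under 0.05, 4 members passed (Tlr13, Tlr7, Myd88 and Tlr2; 44.4%), against 43.7% of all tested genes. These 4 members (44.4%) had groups that did not overlap, against 49.0% of all tested genes, and in each of the 4 every BPAP library lay above every DMSO library, as in 25.2% of all tested genes. The median log2 fold change of the 9 members was 0.02, and that of all tested genes was also 0.02. DESeq2 and limma-voom each called 2 members (Tlr13 and Tlr7), against 31.5% and 31.9% of the genes they tested. When a smooth trend of fold change on exon length and GC content was taken out of the counts, which is called trend removal in what follows, 1 member (Tlr13) was called, against 23.1% of genes.

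**Figure D1:**
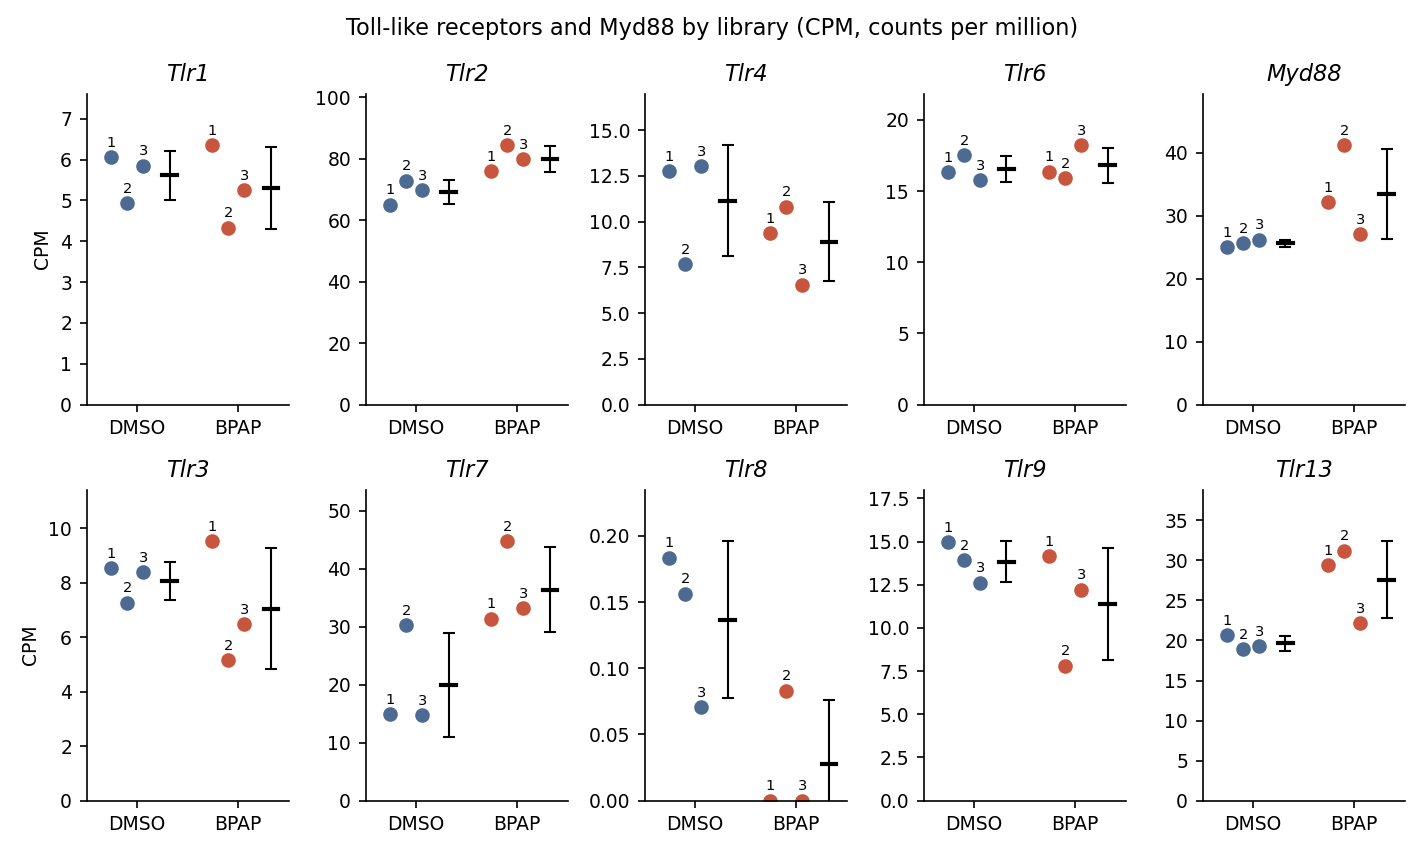
CPM (counts per 1000000 counts of a library; y axis, linear from 0, own scale per panel) of the 10 members in DMSO (blue) and BPAP (red) libraries; digits give the replicate number, and the bar and whiskers beside the points are the mean and SD of 3 libraries. The BPAP points of Tlr2, Tlr7, Tlr13 and Myd88 all lie above the DMSO points, while those of Tlr1, Tlr3, Tlr4, Tlr6 and Tlr9 overlap them, and Tlr8 never exceeds 2 counts.

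Depth ranged from 11084705 to 13806559 counts per library, where 3 counts correspond to 0.217 to 0.271 CPM on the unscaled library totals. The CPM values given elsewhere use scaled library sizes, so they differ slightly from that scale. DMSO library 1 stood apart in its share of mitochondrial counts, 10.8% against 6.53% to 7.55% in the other libraries. Markers of the macrophage lineage such as Cd68, Csf1r and Lyz2 were present, at a summed 4557 to 5176 CPM in DMSO and 5086 to 5501 CPM in BPAP, and Mertk was at 0 counts. Of the 10 tested macrophage markers 5 were higher and 2 lower in BPAP, beside 16.2% and 15.5% over all genes. Without DMSO 1, DMSO 3 or BPAP 1, 3 were higher, without DMSO 2 or BPAP 1, 1 was lower, and after trend removal 2 were higher and 1 lower. Markers of B cells, T cells, epithelium, fibroblasts and dendritic cells reached at most 4, 5, 1, 12 and 20 counts in any library. The part of these marker levels in the members' values was not tested. Because these are bulk libraries, a change in the number of cells of a kind and a change in RNA per cell cannot be told apart.

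The 3 members whose sequence is shown next are those with non-overlapping groups that matched an entry in the RefSeq promoter table (build GRCm38.p6), in which 8 of the 10 members were found; Tlr4 and Tlr7 had no entry. The stretch given is the part of the 250 bases before the RefSeq start that lies outside annotated exons, 5′ to 3′ on the gene's strand, with a motif match in capitals. Each names its position relative to that start. In Tlr13 (chrX:106143025-106143203, plus strand, -250 to -72) the capitals mark the PU.1 core GAGGAAG, in Tlr2 (chr3:83841768-83841858, minus strand, -250 to -160) overlapping matches to the NF-kB pattern (GGG, any 5 bases, CC), and in Myd88 (chr9:119340042-119340268, minus strand, -250 to -24) an interferon-stimulated response element (GAAA, any 2 bases, GAAA).
Tlr13: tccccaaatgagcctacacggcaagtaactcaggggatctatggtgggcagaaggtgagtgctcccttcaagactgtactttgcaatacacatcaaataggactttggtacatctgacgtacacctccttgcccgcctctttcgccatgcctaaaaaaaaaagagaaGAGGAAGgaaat
Tlr2: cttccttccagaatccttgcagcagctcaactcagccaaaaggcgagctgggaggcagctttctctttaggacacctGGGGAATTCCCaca
Myd88: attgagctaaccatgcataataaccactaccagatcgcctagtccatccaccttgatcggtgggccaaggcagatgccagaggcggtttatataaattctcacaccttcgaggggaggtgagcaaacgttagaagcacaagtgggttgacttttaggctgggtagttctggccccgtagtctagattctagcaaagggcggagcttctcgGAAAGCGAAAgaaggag

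Both strands of each window were searched for 8 patterns, and a match describes letters, not a site bound in these cells. The PU.1 core GAGGAAG, named for the ETS factor that specifies macrophages, was found in Tlr13, Tlr9 and Tlr1 and in 10.6% of 32851 promoter windows of the same length. The loose NF-kB pattern was found in Tlr2, Tlr3 and Tlr6 and in 45.8% of all windows. Its stricter form (GGGA, any base, TTTCC), whose matches are a subset of the loose form's, was found in Tlr3 alone among the 8 members and in 0.356% of windows. That Tlr3 match, at -211, lies within annotated exon bases of Tlr3. The interferon-stimulated response element was found in Myd88 and Tlr6 and in 2.98% of windows, and the ETS core AGGAAGT, which can overlap the PU.1 core, in Tlr1 and Tlr6 and in 7.69%. The AP-1 pattern TGANTCA occurred in Tlr9 and in 6.75% of windows, the C/EBP pattern TTGCNNAA in Tlr3, Tlr6 and Tlr8 and in 9.56%, and TATAAA in Myd88, Tlr6 and Tlr8 and in 12.4%. Tlr13, Tlr2 and Myd88 had none of these patterns in common (Tlr7 was not searched): Tlr13 had only the PU.1 core, Tlr2 only the loose NF-kB pattern, and Myd88 the interferon-stimulated response element and TATAAA.

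Compared per length, Tlr2 was the most abundant member in DMSO at 23.0 ± 1.31 CPM per kilobase of merged exon (SD, n = 3), above 82.7% of tested genes. Myd88 followed at 9.95 ± 0.222 CPM per kilobase, above 61.5% of tested genes, and did not overlap Tlr2 or the next gene. Tlr7 (4.88 ± 2.18), Tlr13 (4.56 ± 0.210), Tlr6 (4.44 ± 0.239) and Tlr9 (3.98 ± 0.339) formed a run in which each overlapped the next. Tlr7 led these by its mean alone: it was at 7.40 CPM per kilobase in DMSO 2 and at 3.64 and 3.61 in DMSO 1 and DMSO 3, where it lay below Tlr13, Tlr6 and Tlr9. The lowest tested members were Tlr4 at 2.01 ± 0.544, Tlr1 at 1.68 ± 0.179 and Tlr3 at 1.55 ± 0.132 CPM per kilobase, again each overlapping the next. By their means, all receptors but Tlr2 lay below the median tested gene, at 6.93 CPM per kilobase. In BPAP the order was the same, with Tlr2 at 26.6 ± 1.40, Myd88 at 13.0 ± 2.78, Tlr7 at 8.91 ± 1.78 and Tlr13 at 6.41 ± 1.11 CPM per kilobase. Tlr7 overlapped Myd88 in BPAP and lay above all Tlr13 libraries there. On the deposited FPKM scale the order differed: Tlr7 was sixth in DMSO at 1.75 ± 0.797 FPKM, since the length behind its FPKM was 11508 bases, 2.82 times its 4082 bases of merged exon.

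**Figure D2:**
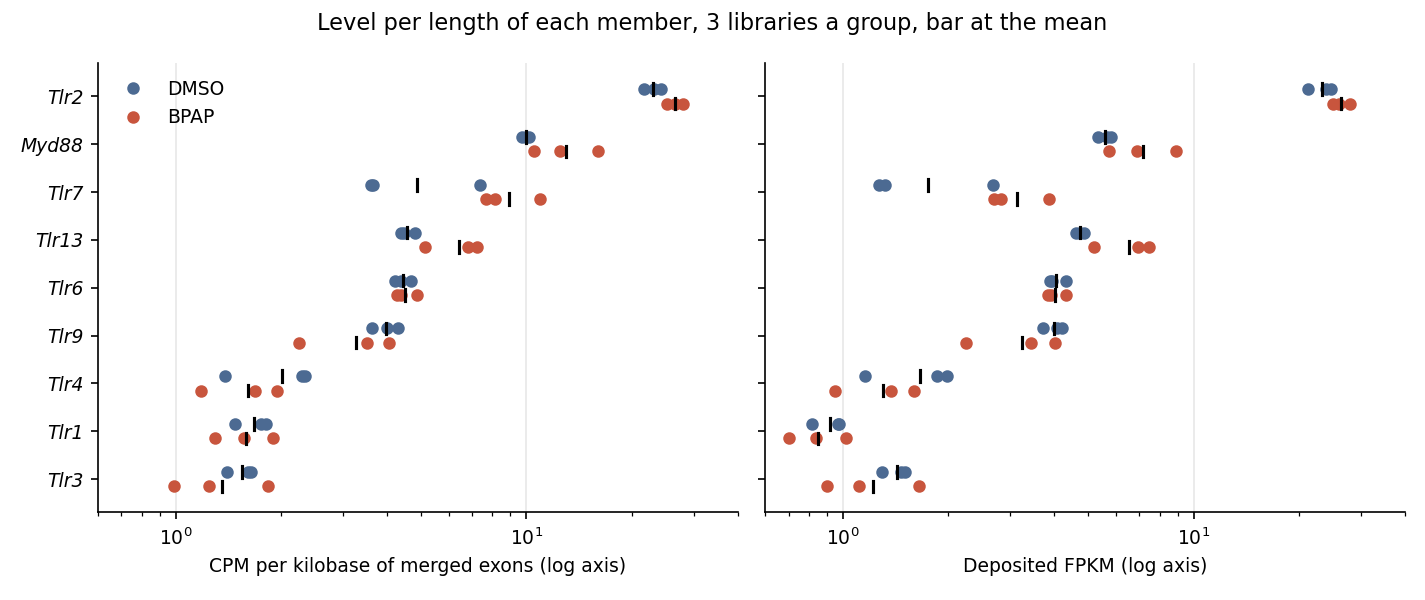
Level per length of the 9 tested members in CPM per kilobase of merged exon (left) and deposited FPKM (right), both on log axes, with 1 point per library (blue DMSO, red BPAP) and a black bar at each group's mean; Tlr8 is left out because it had 0 counts in 2 libraries. Tlr2 leads on both scales, while the DMSO mean of Tlr7 lies above those of Tlr13, Tlr6 and Tlr9 by merged exon length, through DMSO 2, and below them by FPKM.

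Gene positions are those given in the authors' deposited data, on build GRCm38, and merged exons are those of GENCODE M21. Among the surface receptors, Tlr2 (chr3:83836272-83841767, minus strand, 3 merged exons) measured 65.1, 72.9 and 69.9 CPM in DMSO libraries 1 to 3 and 75.9, 84.4 and 80.0 CPM in BPAP libraries 1 to 3. The BPAP libraries were all higher, and the nearest pair, DMSO 2 and BPAP 1, lay close together. Its log2 fold change was 0.21 (SE 0.09, adjusted p 0.103), and after trend removal 0.04 (adjusted p 0.727). Tlr2 was not called under any of 17 alternatives. Its transcripts had no 50-base window in common with another annotated gene.

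Tlr1 and Tlr6, the partners of Tlr2 for triacylated and diacylated lipopeptides, lie 18467 bases apart on chromosome 5 (chr5:64924679-64933563 and chr5:64952031-64960097, both minus strand). Tlr1 had 6.06, 4.93 and 5.85 CPM in DMSO and 6.35, 4.33 and 5.25 CPM in BPAP. Tlr6 had 16.3, 17.5 and 15.8 CPM in DMSO and 16.4, 15.9 and 18.2 CPM in BPAP. Both genes had overlapping groups, and the highest and lowest Tlr1 values were both in BPAP. The log2 fold change of Tlr1 was -0.08 (SE 0.20, adjusted p 0.786) and turned to 0.05 without BPAP 2. That of Tlr6 was 0.02 (SE 0.12, adjusted p 0.893), and its sign turned under several alternatives, all between -0.04 and 0.07. Of the 50-base windows of Tlr1 transcripts 13.6% also occur in Tlr6, and 12.3% of those of Tlr6 occur in Tlr1, so reads of the pair are uncertain where the counting could not place them; how such reads were treated is not given in the sources used here.

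The longest run of identical coding letters between the pair is a stretch within which their reads cannot be separated, and it does not hold all their shared windows. It spans 229 bases, from coding base 1468 of 2385 in Tlr1 (chr5:64925537-64925765) and from coding base 1507 of 2418 in Tlr6 (chr5:64953828-64954056), both on the minus strand of GRCm38.
Tlr1 and Tlr6: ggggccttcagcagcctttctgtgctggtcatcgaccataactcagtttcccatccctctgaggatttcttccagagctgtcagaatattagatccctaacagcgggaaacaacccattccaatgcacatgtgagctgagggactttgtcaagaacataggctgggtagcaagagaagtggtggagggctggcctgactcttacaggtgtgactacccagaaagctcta

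Tlr4, the lipopolysaccharide receptor (chr4:66827584-66930284, plus strand), had 12.8, 7.67 and 13.0 CPM in DMSO and 9.36, 10.8 and 6.56 CPM in BPAP. The groups overlapped: DMSO 2 lay below BPAP 1 and BPAP 2. Its log2 fold change was -0.32 (SE 0.24, adjusted p 0.330) and was -0.08 after trend removal. Leaving out single libraries gave -0.53 (without DMSO 2) to -0.14 (without BPAP 3). At 5556 bases Tlr4 has the longest merged exons of the members.

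Of the endosomal receptors, Tlr7 (chrX:167304929-167330558, minus strand, 6 merged exons) had 14.9, 30.2 and 14.7 CPM in DMSO and 31.3, 44.7 and 33.1 CPM in BPAP. DMSO 2 lay just below BPAP 1, the lowest BPAP library, and DMSO 1 and DMSO 3 lay far below all of them. The log2 fold change was 0.87 (SE 0.31), the highest of the 9 tested members, and edgeR's adjusted p was 0.0746. Leaving out DMSO 2 gave 1.297 (adjusted p 0.00425), and over all single-library omissions the adjusted p ran from 0.00425 to 0.244. DESeq2 (adjusted p 0.00501), limma-voom (0.0470) and limma on log2(FPKM + 1) (0.0414) called it as higher in BPAP; over 17 alternatives it was called in 7. After trend removal it was 0.94 (adjusted p 0.116). No exon of Tlr7 overlaps another annotated gene.

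Tlr13 (chrX:106143204-106160493, plus strand, 4 merged exons) had 20.7, 18.9 and 19.3 CPM in DMSO and 29.4, 31.2 and 22.1 CPM in BPAP. BPAP 1 and BPAP 2 stood well above the DMSO libraries, and BPAP 3 stood just above DMSO 1. Its log2 fold change was 0.49 (SE 0.14, adjusted p 0.0228), and after trend removal 0.52 (adjusted p 0.0348). The adjusted p was 0.0562 without DMSO 1, 0.0750 without DMSO 2, 0.0694 without DMSO 3, 0.0672 without BPAP 1 and 0.0548 without BPAP 2, so the call was lost each time; without BPAP 3 it was 0.00701. The fold change stayed positive throughout, from 0.39 to 0.63 over these omissions. Tlr13 had no exon overlap and no 50-base window in another gene.

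Tlr9, the receptor for unmethylated CpG DNA (chr9:106222598-106226883, plus strand), had 14.96, 13.9 and 12.6 CPM in DMSO and 14.2, 7.82 and 12.2 CPM in BPAP. The low value of BPAP 2 carried the difference, and the groups overlapped. Its log2 fold change was -0.28 (SE 0.20, adjusted p 0.315), and it was -0.06 without BPAP 2. Tlr3, the sensor of viral duplex RNA (chr8:45395665-45410608, minus strand), had 8.54, 7.28 and 8.38 CPM in DMSO and 9.52, 5.16 and 6.48 CPM in BPAP. BPAP 1 was the highest Tlr3 library and BPAP 2 the lowest, so the groups overlapped, and the log2 fold change was -0.19 (SE 0.22, adjusted p 0.531), which ran from -0.47 without BPAP 1 to -0.01 without BPAP 2. An antisense gene, Gm45542, shares 381 exon bases with Tlr3. The strand setting is not given in the sources used here, so it is not known whether reads of the pair were told apart there.

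Tlr8, a sensor of RNA breakdown products that lies 40599 bases from Tlr7 on the X chromosome (chrX:167242696-167264329), had 2, 2 and 1 counts in DMSO and 0, 1 and 0 counts in BPAP. At 5 counts over all DMSO libraries and 1 over all BPAP libraries, no library passed 3 counts, no fold is given, and a difference was not detectable at this depth. The other mouse receptors of the family were also near 0. Tlr5, the flagellin receptor, had 3 counts in DMSO 2, 1 in BPAP 2 and 0 elsewhere; Tlr12 had 2 counts in DMSO 2, 1 in BPAP 3 and 0 elsewhere; and Tlr11 had 0 counts in every library.

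Myd88 (chr9:119335934-119341411, minus strand, 5 merged exons) had 25.1, 25.7 and 26.2 CPM in DMSO and 32.1, 41.2 and 27.1 CPM in BPAP. The DMSO libraries were nearly level, whereas the BPAP libraries spread widely and BPAP 3 was just above DMSO 3. The log2 fold change was 0.38 (SE 0.15, adjusted p 0.0689). Without BPAP 3 it was 0.52 (adjusted p 0.0216), and this was the only one of 17 alternatives that called Myd88; without BPAP 2 it was 0.21. After trend removal it was 0.16 (adjusted p 0.384), and with only the trend on FPKM length removed it was 0.34 (adjusted p 0.118). Myd88 has 2576 bases of merged exon, the shortest of the members, and log2 fold change fell with exon length across all tested genes (Spearman's rho -0.40 across 11665 genes, which are not independent replicates). The length behind its FPKM was 4621 bases, longer than the 3014 bases of Tlr2. The part of length or GC content in the Myd88 value was not tested. The neighbouring gene Acaa1a lies on the opposite strand and shares 290 exon bases with Myd88. Since the strand setting is not given in the sources used here, it is not known whether reads there were told apart.

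**Figure D3:**
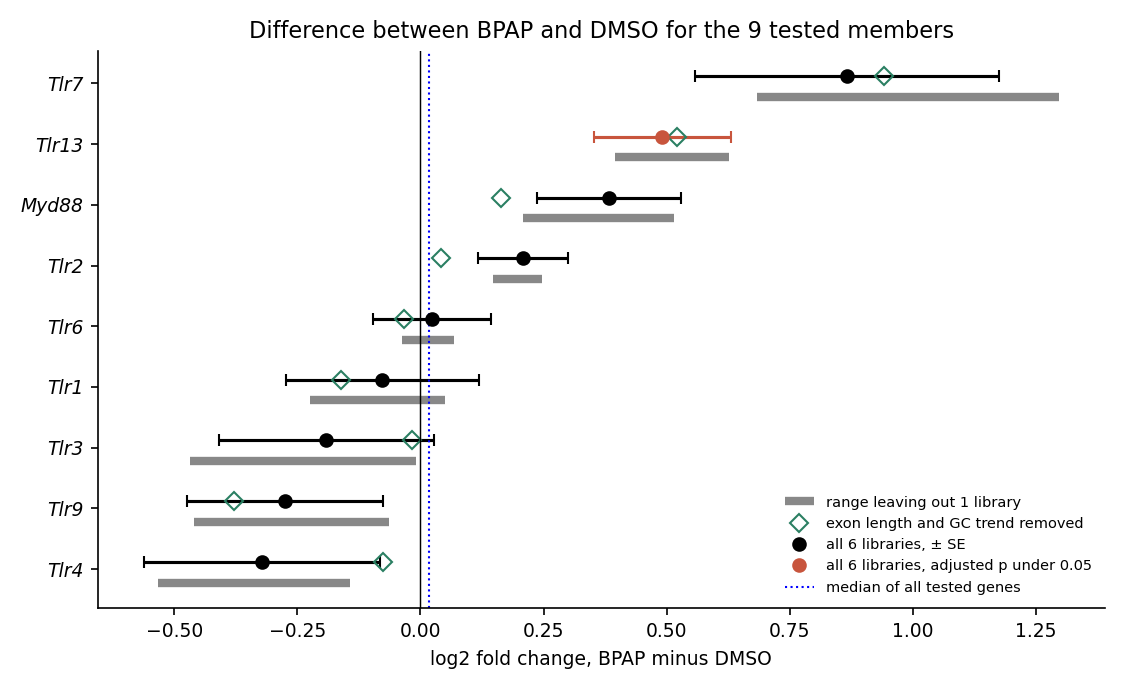
Log2 fold change of BPAP against DMSO (x axis) for the 9 tested members; points are edgeR's estimates over 6 libraries with whiskers of 1 SE (red where the adjusted p is under 0.05), grey bars span the values with each library left out, and green diamonds are the values after removal of the trend on exon length and GC content. Tlr13 alone is red, the grey bars of Tlr7, Tlr13, Myd88 and Tlr2 stay above 0, and the diamonds of Myd88 and Tlr2 lie nearer to 0 than their points.

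The members ranked the libraries differently. BPAP 2 was the highest library for Tlr2, Tlr7, Tlr13 and Myd88, the highest BPAP library for Tlr4, and the lowest of all 6 libraries for Tlr1, Tlr3 and Tlr9. Across genes of the whole table, BPAP 2 also differed from BPAP 1 and BPAP 3 (chi-square per degree of freedom 18.2 and 17.3) more than these did from each other (8.31). DMSO 1 likewise differed from DMSO 2 and DMSO 3 (19.0 and 20.0, against 6.64 between the latter). The part of this in the members' ranks was not tested. Summed over the 9 tested members the level was 184, 199 and 186 CPM in DMSO and 225, 245 and 211 CPM in BPAP, so all BPAP sums lay above the DMSO sums; Tlr2 is the largest term in every sum. The genes whose log2 CPM followed the 3 most abundant members most closely over the 6 libraries are given as a description, since the libraries share treatment and depth. For Tlr2 these were Rnf187 (Pearson's r 0.999), Bloc1s3 (0.998) and Psmb8 (0.995). For Myd88 they were Dyrk3 (0.994), Gpr89 (0.993) and Tor4a (0.992), and for Tlr7 Trmt112 (0.997), Eef2k (0.989) and Dcaf4 (0.984). Trmt112, at 16.4, 20.97 and 16.6 CPM in DMSO and 21.5, 23.4 and 21.3 CPM in BPAP, shared the high DMSO 2 library with Tlr7.

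Around the receptors, the genes of the pathway were followed step by step from lists of known members. The lists were chosen with earlier results of these data known, so their counts are a description. Over all tested genes 16.2% passed as higher and 15.5% as lower, and the counts of each list stand beside these shares. Of the co-receptors that hand ligand to surface receptors, 1 of 5 tested was higher and none lower, with a median log2 fold change of 0.20. In DESeq2, limma on FPKM, the replicate block with and without the FPKM length trend removed, and without DMSO 3, 1 was lower. The higher gene was Cd14, which delivers lipopolysaccharide to Tlr4 and lipopeptides to Tlr2. Cd14 had 87.8, 98.6 and 96.9 CPM in DMSO and 201, 333 and 164 CPM in BPAP, with wholly separate groups and BPAP 2 the highest. Its log2 fold change was 1.299 (SE 0.26, adjusted p 0.0121), a 2.46-fold higher level; the adjusted p was 0.0590 without DMSO 1, the library with the high mitochondrial share. Tlr4 itself showed overlapping groups, and Ly96, the subunit of the Tlr4 complex that binds lipid, had a log2 fold change of 0.20 (adjusted p 0.368; named for its role after its value was seen).

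Receptors are folded and moved to endosomes by chaperones and carriers. Of these, 1 of 11 tested genes was higher and 3 were lower, beside 16.2% and 15.5% over all genes, with a median of 0.06. After trend removal 2 were higher and 2 lower, and the median was -0.15; the added higher gene was Tmed7, which overlaps Ticam2 (adjusted p 0.204 before and 0.00839 after; named after its values were seen). Hsp90b1, the endoplasmic reticulum chaperone gp96 on which most Toll-like receptors depend for folding, fell from 3033, 2944 and 3103 CPM to 2092, 1602 and 2302 CPM. Every BPAP library was below every DMSO library (log2 fold change -0.60, SE 0.12, adjusted p 0.00628), and the call held under each alternative. Rab7b, a GTPase of late endosomes, was 1.54-fold lower (log2 fold change -0.62, adjusted p 0.00442). The histidine and peptide transporters of endolysosomes went in opposite directions: Slc15a3 was higher (0.41, adjusted p 0.0148) and Slc15a4, which Tlr7 and Tlr9 signalling needs, was lower (-0.46, adjusted p 0.0380). The Slc15a3 call was lost without DMSO 1, DMSO 3 or BPAP 1, up to an adjusted p of 0.0618, and the Slc15a4 call without DMSO 2, DMSO 3, BPAP 1 or BPAP 2, up to 0.120, and after trend removal (0.0562). Slc15a3 shares 1541 exon bases with Tmem132a on the opposite strand. Unc93b1, the escort of the endosomal receptors, had a log2 fold change of 0.16 (adjusted p 0.189; named for its role after its value was seen).

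Endosomal receptors become active after proteases cut them, and nucleases prepare their ligands. Of these genes 3 of 9 tested were higher and none lower, beside 16.2% and 15.5% over all genes. The median was 0.20 (0.01, and 1 lower, after trend removal). Ctsl, the protease cathepsin L, measured 265, 303 and 290 CPM in DMSO and 452, 421 and 432 CPM in BPAP (log2 fold change 0.61, SE 0.09, adjusted p 0.00121). The groups were wide apart, although an antisense gene, Gm47123, shares 1742 of its exon bases. Rnaset2a and Rnaset2b, nearly identical copies of an endolysosomal RNase that cuts RNA for recognition by TLRs, were 1.55-fold and 1.46-fold higher (adjusted p 0.00161 and 0.00152). Each also shares 909 exon bases on its own strand with another annotated gene (Gm49673 and Gm49721), and reads can be exchanged between the copies, so their counts are uncertain.

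Of the other TIR adaptors 2 of 4 tested were higher, beside 16.2% over all genes. Ticam2 (TRAM), the bridge between Tlr4 and Ticam1, had 34.1, 37.1 and 35.2 CPM in DMSO and 53.3, 44.4 and 53.5 CPM in BPAP. All its BPAP libraries were higher (log2 fold change 0.51, SE 0.11, adjusted p 0.00650), but it shares 838 exon bases with Tmed7 on the same strand. Ticam1 had 26.2, 24.3 and 21.8 CPM in DMSO and 29.1, 44.5 and 29.8 CPM in BPAP, with BPAP 2 far above the rest. Its log2 fold change of 0.52 (SE 0.17, adjusted p 0.0401) was not called without DMSO 1, DMSO 2, DMSO 3 or BPAP 2 (adjusted p up to 0.126) or after trend removal (0.36, adjusted p 0.107). Tirap, the adaptor that brings Myd88 to Tlr2 and Tlr4, had a log2 fold change of -0.01 (adjusted p 0.937; named for its role after its value was seen).

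Kinases and ubiquitin ligases downstream of the adaptors counted 5 lower and none higher of 22 tested, with a median of -0.13, beside 15.5% lower over all genes. Ikbke, a kinase that activates Irf3, had 43.5, 35.9 and 41.7 CPM in DMSO and 26.5, 17.9 and 24.7 CPM in BPAP. The groups did not overlap, and its log2 fold change was -0.81 (SE 0.15, adjusted p 0.00387). Tab3, a subunit of the TAK1 complex, was 1.51-fold lower (-0.60, adjusted p 0.00771), and Tbk1, the close relative of Ikbke, 1.24-fold lower (-0.31, adjusted p 0.0217). Chuk (IKK-alpha) was 1.25-fold lower (-0.32, adjusted p 0.0261), and the fifth gene was Ikbkb (IKK-beta; -0.29, adjusted p 0.0337; named after its value was seen). The Ikbkb call was lost when any library other than DMSO 3 was left out (adjusted p up to 0.0956) and in limma on FPKM, and after trend removal its sign turned (0.07, adjusted p 0.573). The count of lower genes was 2 without DMSO 2 or BPAP 1 and 3 without DMSO 3 or BPAP 3; the Ikbke and Tab3 calls held in each of these, and 1 gene was higher without DMSO 1. After trend removal 1 gene was higher and 4 were lower. With the FPKM length trend removed and a replicate block, 1 was higher and 3 were lower. The Tbk1 call was lost without DMSO 2, DMSO 3, BPAP 1 or BPAP 3 (adjusted p up to 0.0743), and the Chuk call without DMSO 2, DMSO 3 or BPAP 1 (up to 0.110) and after trend removal (0.134). Irak4, Irak1 and Traf6, which act directly after Myd88, had log2 fold changes of -0.18, -0.15 and 0.01 (adjusted p 0.278, 0.441 and 0.958; named for their role after their values were seen).

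Among inhibitors of the pathway 1 of 11 tested genes was higher and 3 were lower, beside 16.2% and 15.5% over all genes. Tollip, which restrains IRAK1, rose from 108, 121 and 113 CPM to 146, 156 and 150 CPM (log2 fold change 0.40, SE 0.09, adjusted p 0.00689). Tnfaip3 (A20), a deubiquitinase that ends NF-kB signalling, fell from 50.4, 58.2 and 56.4 CPM to 24.1, 32.04 and 42.5 CPM (-0.74, SE 0.18, adjusted p 0.0138). Neither gene's groups overlapped, and the Tnfaip3 call was lost without BPAP 2 (adjusted p 0.0694) and with the FPKM length trend removed. Cyld, another deubiquitinase, was 1.35-fold lower (adjusted p 0.0133, but 0.357 after trend removal and 0.0554 without DMSO 3). Ptpn6, the phosphatase SHP-1, was 1.28-fold lower (adjusted p 0.0417) and lost its call without DMSO 1, DMSO 2, BPAP 1 or BPAP 3 (up to 0.131) and with upper quartile scaling.

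None of 6 interferon regulatory factors passed in edgeR's test, DESeq2 or limma-voom, with a median of 0.12. Over all genes 16.2% were higher and 15.5% lower in edgeR's test, the shares that go beside each count in this paragraph. The smallest p in that test were those of Irf9 (0.26, unadjusted p 0.0745, adjusted p 0.154) and Irf7 (0.33, unadjusted p 0.0776, adjusted p 0.159), and no factor had an unadjusted p under 0.05. In the IL-1 and IL-18 receptor family, which shares Myd88, 1 of 3 tested genes was lower: Il18rap, at 7.34, 5.79 and 4.37 CPM in DMSO and 2.604, 3.91 and 2.95 CPM in BPAP (-0.88, SE 0.25, adjusted p 0.0224). Its call was lost without DMSO 1, DMSO 2, BPAP 1 or BPAP 3, up to an adjusted p of 0.0804, and after trend removal (0.0626). Of 13 tested pattern recognition receptors and adaptors outside the family, 2 were higher and none lower (1 was lower without BPAP 1, after removal of either trend, with the replicate block and in limma on FPKM; with the FPKM length trend and the block together it was 2), and the higher genes were the C-type lectins Clec4e (Mincle; 0.63, adjusted p 0.00320) and Clec4d (0.43, adjusted p 0.00903). After trend removal, Clec4d was no longer called (0.28, adjusted p 0.0617).

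Genes that TLR signalling induces counted 9 higher and 2 lower of 21 tested, with a median of 0.45, beside 16.2% higher and 15.5% lower over all genes. Since the list was chosen with earlier results of these data known, its counts describe it and are no test of it. After trend removal 7 were higher and 2 lower with a median of 0.26, and with the trend on FPKM length removed and a replicate block 8 were higher and 5 lower. Cxcl2, a neutrophil chemokine, had 8.996, 8.21 and 6.34 CPM in DMSO and 39.96, 24.8 and 29.4 CPM in BPAP (log2 fold change 2.01, SE 0.20, adjusted p 0.000436). Ccl4, a chemokine for monocytes and T cells, was 2.48-fold higher (adjusted p 0.000545), and Il23a, a subunit of interleukin 23, was 2.98-fold higher (adjusted p 0.000823). Lcn2, an iron-sequestering protein, was 5.79-fold higher at low levels, from 0.412 ± 0.200 to 2.35 ± 0.824 CPM (SD, n = 3; adjusted p 0.00239). The groups of these 4 genes did not overlap. The 2 lower genes were Nfkbia (IkB-alpha; -0.47, adjusted p 0.00371) and Nos2 (-0.42, adjusted p 0.0244), named because they are few and chosen after their values were seen. The lower count was 1 without DMSO 1, DMSO 2 or BPAP 3. The list holds 29 genes, of which 8 had too few counts to test, among them Il1b and Il6. Of the pathway genes named without such a remark, Hsp90b1, Slc15a4, Tirap, Ikbke, Irak1, Irak4, Ptpn6, Irf7 and Irf9 share 39 to 446 exon bases with another annotated gene, in which reads are uncertain. Where the strands are opposite, this depends on the strand setting, which is not given in the sources used here.

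**Figure D4:**
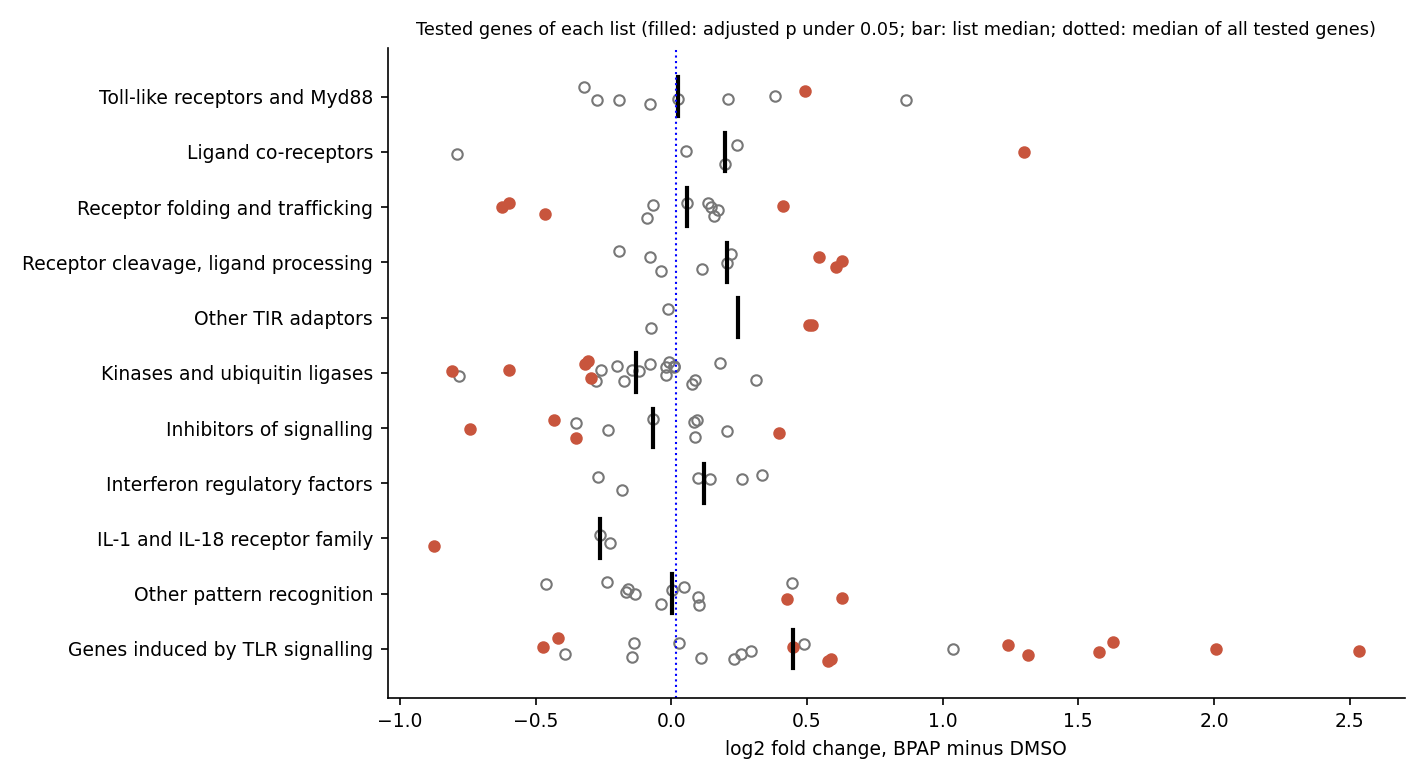
Log2 fold change of BPAP against DMSO (x axis) of each tested gene, by list (rows); filled red points have an adjusted p under 0.05, open points do not, black bars are list medians and the dotted line is the median of all tested genes, 0.02. The members have 1 filled point and a median on the dotted line, and the induced genes have 9 filled points to the right and 2 to the left.

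**Figure D5:**
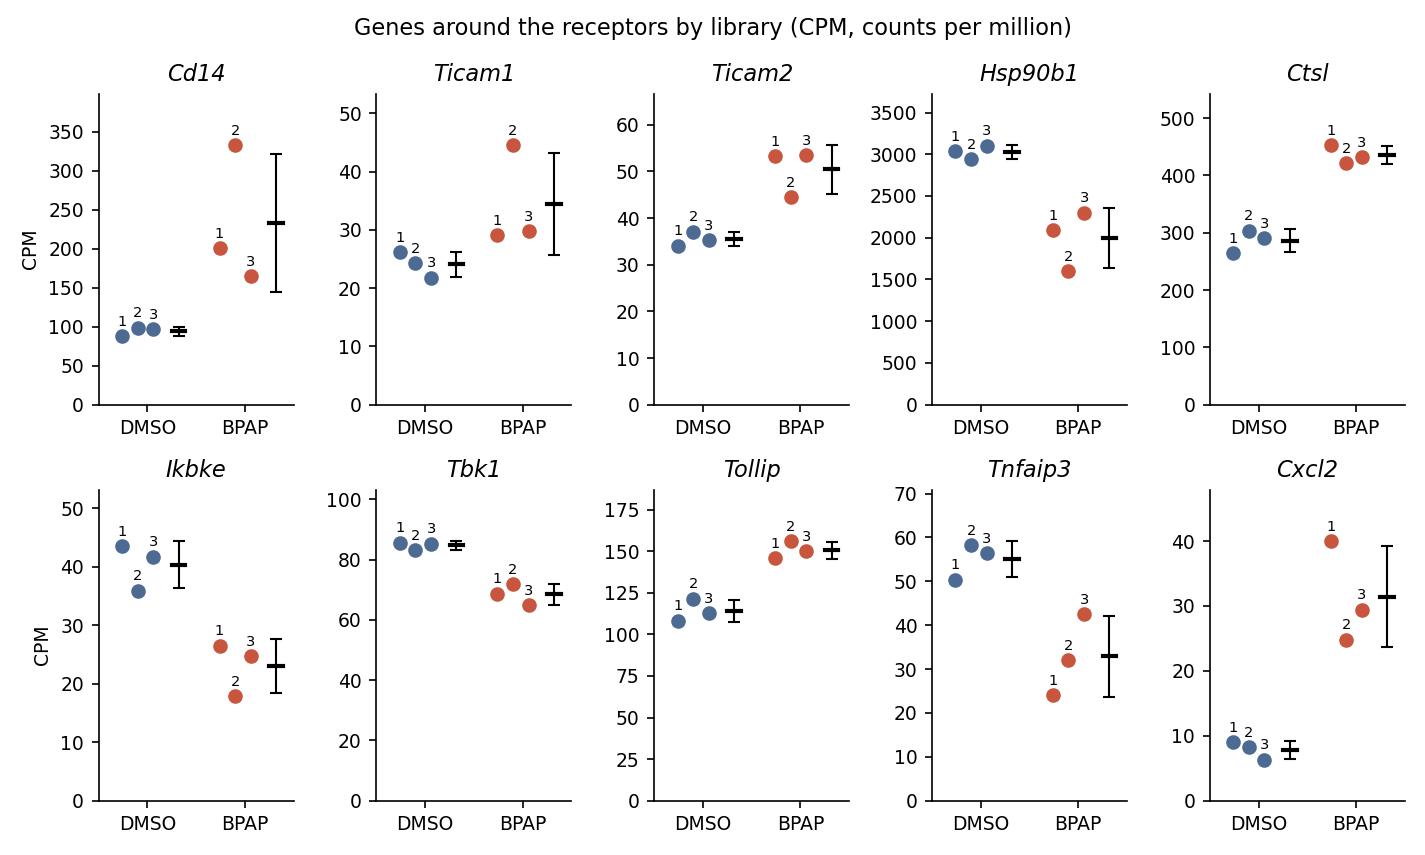
CPM (y axis, linear from 0, own scale per panel) of 10 pathway genes in DMSO (blue) and BPAP (red) libraries; digits give the replicate number, and the bar and whiskers are the mean and SD of 3 libraries. In all 10 genes, which were picked from those called, the groups do not overlap, as in 49.0% of all tested genes. Cd14, Ticam1, Ticam2, Ctsl, Tollip and Cxcl2 are higher in BPAP, and Hsp90b1, Ikbke, Tbk1 and Tnfaip3 are lower.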

How the data were processed

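RNA from 6 libraries of RAW 264.7 cells was sequenced. The authors deposited a table of whole-number counts and FPKM values per gene and library; per the submitters' processing notes HISAT2 2.0.4, StringTie 1.3.3b and edgeR were used with build GRCm38, in roles that are not given there. Each library's counts came from its named column, and groups from the treatment label. Genes kept by filterByExpr (11711) were fitted with edgeR 4.0.16 in R 4.3.3 (TMM scaling, robust quasi-likelihood test, treatment the only term), with Benjamini-Hochberg adjustment over all of them and a threshold of 0.05. The script was tested on simulated counts. CPM values use TMM-scaled library sizes. Merged exons, overlaps and 50-base windows came from GENCODE M21, and promoters from RefSeq GRCm38.p6. Genes are the members, up to 4 called genes per list with the smallest p (2 where none passed), and the 3 genes closest to each of 3 members. The members and lists were chosen with earlier results of these data known. Alternatives were other scalings, no count filter, DESeq2 1.42.0, limma 3.58.1 (voom, and log2(FPKM + 1) or log2(FPKM + 0.1) for genes of mean FPKM of at least 1), removal of trends on length or GC content, a replicate block and each library left out.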

Additional observations from a re-analysis of the deposited data

How the results depend on the processing

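The count of members called was 1 with the DESeq2 size factors, upper quartile scaling, no count filter and removal of either trend, and 2 (Tlr13 and Tlr7) with DESeq2, limma-voom, limma on log2(FPKM + 1) and log2(FPKM + 0.1), and the replicate block with and without the FPKM length trend removed. Leaving out single libraries gave 0 to 2. The sign turned for Tlr1 without BPAP 2 (0.0503) and for Tlr6 with limma on log2(FPKM + 1) (-0.006) and log2(FPKM + 0.1) (-0.0073), with the FPKM length trend removed (-0.0438, and -0.0441 with the replicate block), after removal of the trend on exon length and GC (-0.0331), and without DMSO 1 (-0.0038), DMSO 3 (-0.0106) or BPAP 3 (-0.0365); over single-library omissions Tlr1 ran from -0.2252 to 0.0503 and Tlr6 from -0.0365 to 0.0673, and the cause was not tested. Of the members' other values, 129 kept direction and side of the threshold, 8 gained the call and 5 lost it. For the other named genes 544 kept both, 56 lost the call, 3 (all Tmed7) gained it and 20 turned sign. The last were, with the FPKM length trend removed alone and with the replicate block, Ikbkb (0.0542, 0.0546), Ly96 (-0.0269, -0.0182), Tirap (0.063, 0.0624) and Irak1 (0.0466, 0.0526), and without the trend on exon length and GC Ikbkb (0.0666), Ly96 (-0.0226) and Tirap (0.0092). Tirap also turned with upper quartile scaling (0.0095), and Traf6 with limma-voom (-0.0082), limma on log2(FPKM + 1) (-0.0301) and log2(FPKM + 0.1) (-0.0358), and the replicate block (-0.005). Over single-library omissions Tirap ran from -0.0606 to 0.0369 and Traf6 from -0.1618 to 0.1052.

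The labels number the libraries 1 to 3 in both groups. Deviations of same-numbered libraries from their group means correlated at 0.10, 0.05 and 0.01. DMSO 1 and DMSO 2 correlated best with the BPAP library of their own number, and DMSO 3 with BPAP 2. These small values do not settle whether the numbers pair the libraries. A replicate block moved the count of genes called from 3715 to 4236 and gave Tlr7 an adjusted p of 0.00183. With 3 libraries per group and a common biological coefficient of variation of 0.127, small differences in the members may be missed. The power to find them was not computed. Tlr8 had at most 2 counts per library, so a difference in it was not detectable at this depth.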
